A study of Homo sapiens with 4 samples.

Results

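10 genes that mark mast cells and basophils were followed between imatinib-sensitive and imatinib-resistant leukaemia cells. They were chosen by symbol, as CPA3, HDC, TPSAB1, TPSB2, TPSD1, FCER1A, FCER1G, CMA1, SRGN and SLC18A2, and each had 1 row among the 32673 genes of the FPKM table (FPKM, the fragments of a gene scaled by its transcript length and by the size of the library). The sensitive cells, TF1-BA, are the human erythroleukaemia line TF1 into which the BCR-ABL oncogene was brought by a retrovirus. The resistant cells, TF1-BAR, were derived from them by prolonged exposure to imatinib, so both groups carry BCR-ABL and parental TF1 cells were not analysed here. The labels give both groups the cytokine GM-CSF, 2 ng/mL, while the study's methods give a higher concentration, and the labels give 2 µM imatinib in the TF1-BAR culture. The TF1-BAR libraries are titled as vector libraries, and whether a vector or the drug was present at RNA extraction was not given in the sources used here. These exposures cannot be told apart from resistance. There were 2 libraries per cell line, and nothing says that they came from separate cultures, so the p-values measure the spread between these libraries, which may be technical.

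Mast cells and basophils are the cells of immediate allergy. They carry the high-affinity receptor for IgE, made of an alpha chain that binds IgE, a beta chain and a gamma chain that passes the signal on, and they store histamine and proteases in granules. Histamine is made from histidine by histidine decarboxylase and moved into granules by a vesicular amine transporter. In the granule the proteoglycan serglycin carries chains of negative charge that hold histamine, tryptases, chymase and carboxypeptidase A. GATA2, MITF and the receptor KIT are known regulators of these cells, and GATA factors are shared with the erythroid and megakaryocytic branches.

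The RNA of 4 of the genes was higher in the TF1-BAR cells by more than 2-fold. These were HDC (histidine decarboxylase), FCER1A (the alpha chain of the IgE receptor), CPA3 (carboxypeptidase A3) and TPSD1 (tryptase delta). SRGN (serglycin) and TPSB2 (tryptase beta 2) were lower by less than 2-fold. TPSAB1, SLC18A2 and FCER1G did not pass the test, and CMA1 (chymase) was at the limit of detection.

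Expression was compared with limma on log2(FPKM + 0.5) over 15519 genes whose FPKM averaged 0.5 or more, and 9 of the 10 genes were tested. Genes were counted as differentially expressed when the log2 fold change was 1 or more in either direction with a Benjamini-Hochberg adjusted p under 0.05. By this rule 4 of the 9 were higher in the TF1-BAR cells and 0 were lower, where 3.05% of all genes tested were higher and 1.69% lower. With the adjusted p alone 4 were higher and 2 lower, where the shares of all genes were 16.3% and 10.5%. These shares are the background for the further lists below as well. The libraries of the cell lines did not overlap for 8 of the 9 genes, 4 higher and 4 lower, a separation shown upward by 40.9% and downward by 28.4% of all genes tested. CPA3 passed the filter through its TF1-BAR libraries alone, so these counts are a description. The median log2 fold change of the 9 genes was −0.035, and that of all genes tested was 0.066. Among all genes 737 were differentially expressed, of which 64.3% were higher in TF1-BAR, and after quantile normalization 51.5% of 697 were. In bulk RNA, fewer cells of a type and less RNA per cell cannot be told apart.

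**Figure D1:**
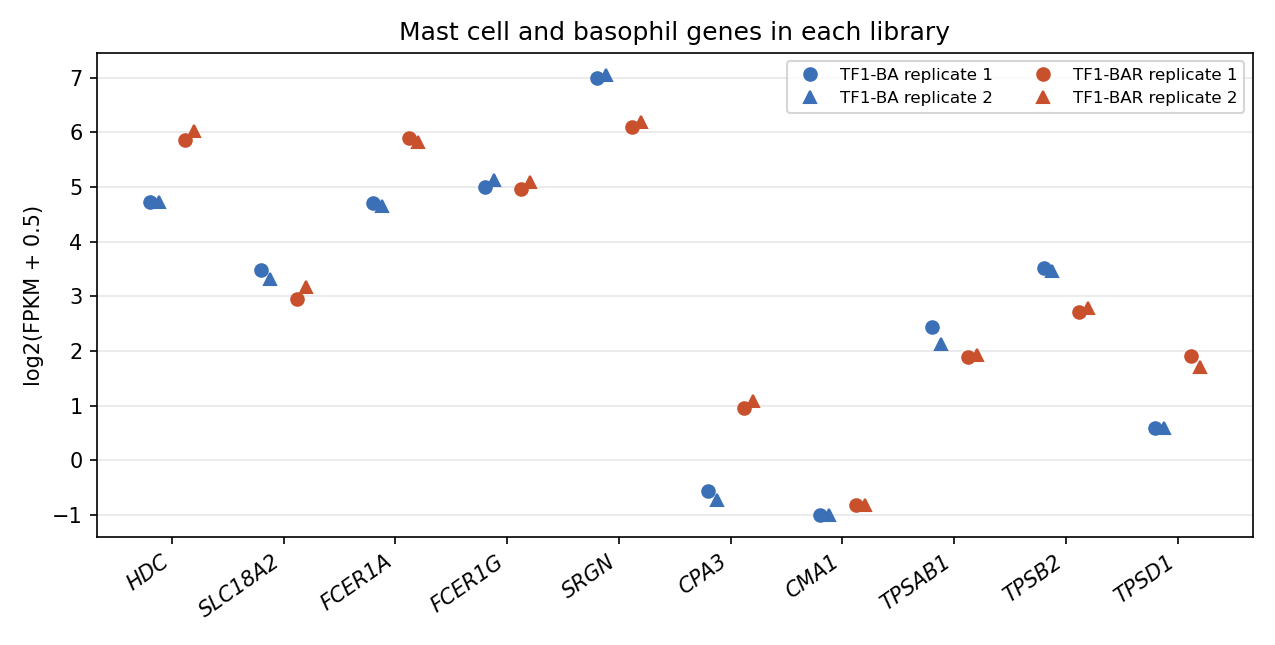
Level of each of the 10 genes as log2(FPKM + 0.5) on the vertical axis, with 1 point per library, coloured by cell line and shaped by replicate. HDC, FCER1A, CPA3 and TPSD1 sit higher in both TF1-BAR libraries. SRGN, TPSB2, TPSAB1 and SLC18A2 sit lower, TPSAB1 and SLC18A2 without passing the test. The points of FCER1G overlap, and CMA1 was at the limit of detection.

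The libraries held between 15465497 and 18042299 fragments, recovered from the FPKM values, and the listed genes took 98.7% of each. Across genes the log2 levels correlated at 0.979 to 0.983 within a cell line and at 0.946 to 0.956 between the lines. With 2 libraries against 2, an exact permutation test of a single gene cannot give a two-sided p below 0.333, so each adjusted p depends on the variance that limma borrows from all genes. Leaving out TF1-BA replicate 1 left 1 of the 9 genes, FCER1A, with an adjusted p under 0.05, and leaving out TF1-BA replicate 2 left 0, although 6 and 7 of them had an unadjusted limma p under 0.05. The calls of HDC, CPA3, TPSD1, SRGN and TPSB2 were lost in both cases, with adjusted p of at most 0.0765. Without TF1-BAR replicate 2 CPA3 was also lost (adjusted p = 0.0507), and without TF1-BAR replicate 1 all 6 genes kept their calls.

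The promoters of 6 of the 10 genes were in the RefSeq table of GRCh38.p14. Those of 3 genes that were higher in the TF1-BAR cells are shown to print where the GATA motif, which mast cell genes are known to carry, occurs in them. Each is the 250 bases before the transcription start, written along the strand of the gene, and capitals mark a GATA motif, searched on both strands as AGATAA or TGATAA or AGATAG or TGATAG. CPA3 lies at chr3:148865046-148865295 on the plus strand, FCER1A at chr1:159302086-159302335 on the plus strand and HDC at chr15:50265727-50265976 on the minus strand. The starts are those of RefSeq, and each window overlaps the gene span deposited with the FPKM values.
CPA3: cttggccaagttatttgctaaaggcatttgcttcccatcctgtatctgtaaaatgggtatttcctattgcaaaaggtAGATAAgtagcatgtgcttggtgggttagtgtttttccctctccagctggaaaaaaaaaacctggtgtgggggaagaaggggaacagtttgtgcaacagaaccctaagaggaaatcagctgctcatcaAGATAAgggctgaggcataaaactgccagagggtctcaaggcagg
FCER1A: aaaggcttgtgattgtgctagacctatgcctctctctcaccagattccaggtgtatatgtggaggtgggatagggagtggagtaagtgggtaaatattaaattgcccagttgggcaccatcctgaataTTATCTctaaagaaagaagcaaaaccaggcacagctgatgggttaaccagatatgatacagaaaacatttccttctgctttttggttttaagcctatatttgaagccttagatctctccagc
HDC: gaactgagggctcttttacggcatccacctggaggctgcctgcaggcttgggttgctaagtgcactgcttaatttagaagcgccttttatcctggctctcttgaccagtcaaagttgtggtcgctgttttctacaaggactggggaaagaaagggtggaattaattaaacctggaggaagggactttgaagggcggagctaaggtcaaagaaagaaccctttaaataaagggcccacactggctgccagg
The CPA3 promoter held 2 motifs, which began 173 and 45 bases before the start, and the FCER1A promoter held 1, which began 122 bases before it. None of these letters was in the HDC window, nor in those of FCER1G, CMA1 and SLC18A2. Among 35116 promoters, 22.3% held at least 1 such motif and 4.96% held 2 or more. A second motif of the same length, the E-box bound by MITF (CACGTG or CATGTG or CACATG, both strands), was in the CPA3 window once, in 0 of the other 5, and in 15.2% of all promoters. No motif match overlapped another in these windows, and a match says nothing of binding in these cells.

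Gene spans are those deposited with the FPKM values, on GRCh38. The genes of histamine synthesis and storage differed from each other. HDC (ENSG00000140287, chr15:50241947-50266026) had 26.1 and 26.0 FPKM in TF1-BA, against 57.5 and 64.4 FPKM in TF1-BAR. Both TF1-BAR libraries stood above both TF1-BA libraries, and the 1591 to 4097 fragments behind each value make HDC one of the better measured genes of the group. The mean was 61.0 ± 4.90 FPKM (SD, n = 2) against 26.0 ± 0.0388 FPKM (n = 2), 2.34-fold higher, and the log2 fold change was 1.21 (limma standard error, SE, 0.0770, adjusted p = 0.00374). HDC lay above 89.6% of the genes tested in the TF1-BA cells and above 96.3% in the TF1-BAR cells. SLC18A2 (ENSG00000165646, chr10:117241093-117279430), the vesicular amine transporter that loads histamine into granules, had 10.7 and 9.44 FPKM in TF1-BA, against 7.24 and 8.54 FPKM in TF1-BAR. These ranges did not overlap, but the log2 fold change of −0.33 (SE 0.113, 95% interval −0.62 to −0.042) had an adjusted p of 0.0884 from limma, and 0.0247 with limma voom on recovered fragments. The FPKM of HDC over that of SLC18A2 in the same library was 2.44 and 2.76 in TF1-BA, against 7.94 and 7.55 in TF1-BAR. SLC18A2 overlaps PDZD8 and SLC18A2-AS1 on the opposite strand, and the library kit that the study names does not mark strand, so reads from the overlap cannot be told apart. The same limit holds for CPA3 and CMA1, each overlapped by an unnamed gene on the opposite strand, for TPSD1, overlapped by an unnamed gene on its own strand, and for HDC and SRGN, each overlapped on its own strand by a gene of the signal recognition particle RNA family.

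Other genes of amine handling, from a fixed list of 11, were mostly at low levels. 9 of them were in the table, 4 were tested, 1 was higher with an adjusted p under 0.05, 1 was lower, and 0 passed both thresholds, with a median log2 fold change of 0.36 over the 4. HNMT, which inactivates histamine by methylation, had 0.559 and 0.612 FPKM in TF1-BA, against 1.56 and 1.16 FPKM in TF1-BAR (log2 fold change 0.77, SE 0.179, adjusted p = 0.0358 from limma). SLC18A1, the second vesicular amine transporter, had 2 and 0 fragments in TF1-BA, against 19 and 30 in TF1-BAR, below the filter and not tested. MAOB, a monoamine oxidase, was the gene that was lower, with a log2 fold change of −0.78 (limma SE 0.185, adjusted p = 0.0377), and it passed the filter on low values through its TF1-BA libraries alone.

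The 3 chains of the IgE receptor did not move alike. FCER1A (ENSG00000179639, chr1:159289714-159308224) had 25.6 and 24.6 FPKM in TF1-BA, against 58.8 and 56.1 FPKM in TF1-BAR. The libraries of the lines were far apart for their spread, at 57.4 ± 1.90 FPKM (SD, n = 2) in TF1-BAR and 25.1 ± 0.707 FPKM (n = 2) in TF1-BA. FCER1A was 2.28-fold higher, with a log2 fold change of 1.18 (limma SE 0.0637, adjusted p = 0.00289), the smallest adjusted p among the 9 genes. The beta chain MS4A2, which is not among the 10 genes, had 0.884 and 1.03 FPKM in TF1-BA, against 3.03 and 2.18 FPKM in TF1-BAR, from 71 fragments in each TF1-BA library. It also passed both thresholds, with a log2 fold change of 1.08 (limma SE 0.177, adjusted p = 0.0165). FCER1G (ENSG00000158869, chr1:161215234-161220699), the gamma chain that other Fc receptors of myeloid cells also use, had 31.7 and 34.3 FPKM in TF1-BA, against 30.7 and 33.7 FPKM in TF1-BAR. Its libraries overlapped, and the 95% interval of its log2 fold change ran from −0.24 to 0.17 (adjusted p = 0.770). The FPKM of FCER1A over that of FCER1G was 0.808 and 0.719 in TF1-BA, against 1.91 and 1.66 in TF1-BAR, so the alpha chain stood below the gamma chain in one line and above it in the other.

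**Figure D2:**
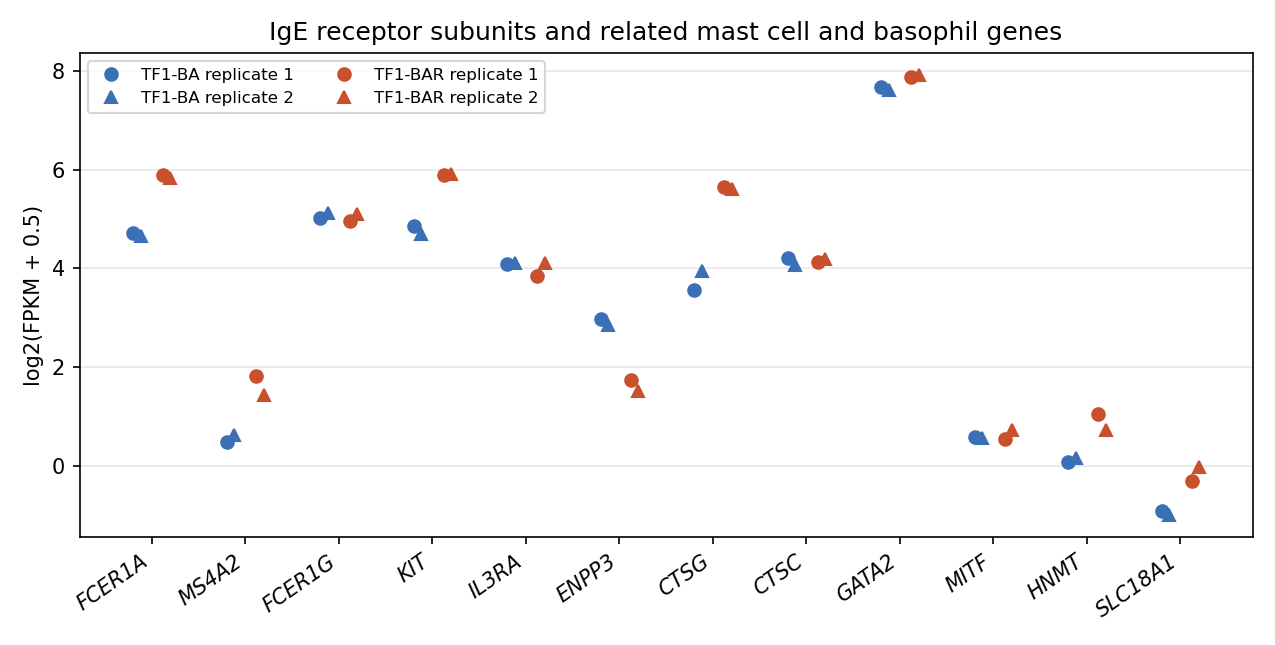
Level as log2(FPKM + 0.5) of the IgE receptor chains FCER1A, MS4A2 and FCER1G and of 9 related genes, with 1 point per library. FCER1A, MS4A2, KIT, CTSG, GATA2, HNMT and SLC18A1 are higher in both TF1-BAR libraries, SLC18A1 from few fragments and not tested. ENPP3 is lower, and FCER1G, CTSC, IL3RA and MITF overlap.

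A fixed list of 17 genes of the IgE receptor and its signalling was tested in full. 5 were higher and 3 lower with an adjusted p under 0.05, 9 did not pass, and 2 were differentially expressed, both higher. Besides MS4A2 this was GRAP2, an adaptor of immune receptor signalling, with 3.69 and 3.42 FPKM in TF1-BA, against 14.5 and 16.6 FPKM in TF1-BAR (log2 fold change 1.98, SE 0.0988, adjusted p = 0.00238 from limma). LYN and SYK, the kinases nearest to the receptor, had log2 fold changes of 0.19 and 0.25 and adjusted p of 0.0679 and 0.0563. The median log2 fold change of the list was 0.18. Of all genes tested, 16.3% were higher and 10.5% lower with an adjusted p under 0.05.

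SRGN (ENSG00000122862, chr10:69088106-69104811), the core protein of the granule proteoglycan, had the highest FPKM of the 10 genes in every library. It had 127 and 132 FPKM in TF1-BA, against 68.1 and 72.4 FPKM in TF1-BAR, and the lines did not overlap. The level fell 1.84-fold, from 129 ± 3.94 FPKM (SD, n = 2) to 70.2 ± 3.03 FPKM (n = 2), with a log2 fold change of −0.88 (limma SE 0.0627, adjusted p = 0.00409), which did not reach the fold change threshold. The summed FPKM of the 10 genes was 238 and 242 in TF1-BA, against 236 and 249 in TF1-BAR, and SRGN made up 53.2% and 54.6% of it in the former and 28.8% and 29.0% in the latter. SRGN is also expressed by many other blood cells and does not by itself mark mast cells.

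SRGN and SLC18A2 both lie on chromosome 10, whose genes were lower as a whole. The median log2 fold change was −0.35 over its 593 genes tested and 0.077 over the 14926 genes on the other chromosomes, and 79.3% of the chromosome 10 genes had a negative value. Ranked by log2 fold change, 50.9% of the chromosome 10 genes lay below SLC18A2 and 10.3% below SRGN. The 17 tested neighbours of SRGN within 1000 kb on either side had a median of −0.56, and 15 of them were negative. The 7 tested neighbours of SLC18A2 had a median of −0.16, ranged from −0.89 to 0.35, and 4 were negative. With each chromosome's median level set equal between the libraries, the log2 fold change was −0.46 for SRGN (adjusted p = 0.0143) and 0.081 for SLC18A2 (adjusted p = 0.616). The part of the chromosome in either result was not tested further. For the 8 genes on other chromosomes the neighbours within the same distance had medians between 0.055 and 0.23, and HDC, FCER1A, CPA3 and TPSD1 kept log2 fold changes of 1.06, 1.08, 1.69 and 1.10 with chromosome medians equal.

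**Figure D3:**
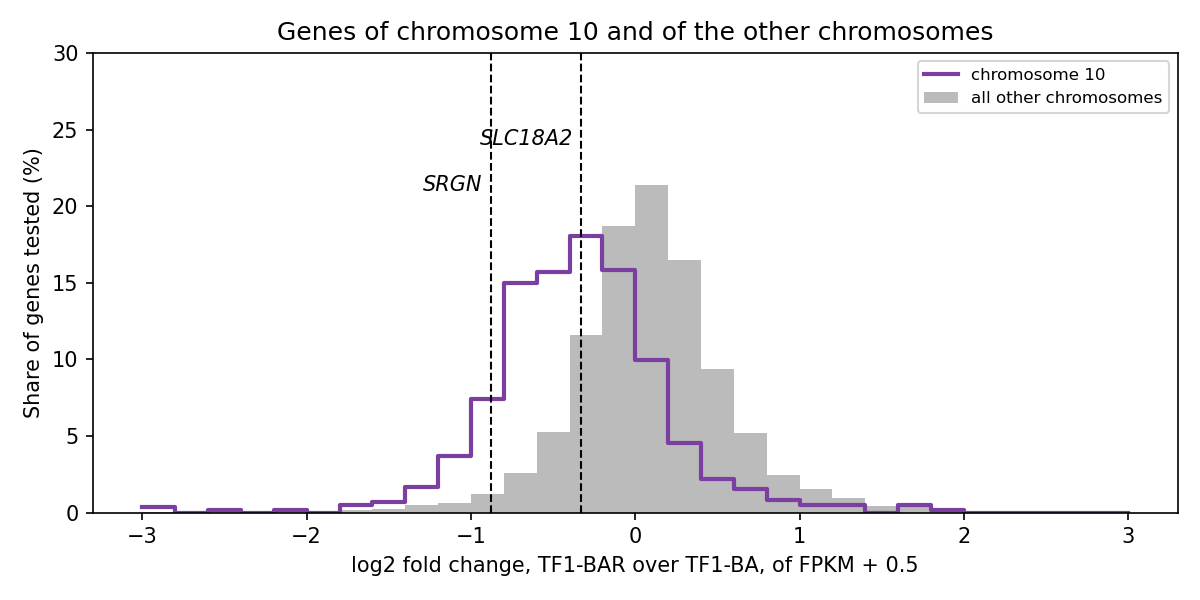
Share of genes tested, in percent, by log2 fold change, for chromosome 10 (line) and all other chromosomes (bars), with values beyond 3 in either direction placed in the end bins. Dashed lines mark SRGN at −0.88 and SLC18A2 at −0.33, and the chromosome 10 line lies to the left, with a median of −0.35.

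Among the 4 protease genes of the group that were tested, CPA3 had the largest log2 fold change and the fewest fragments in the TF1-BA libraries. CPA3 (ENSG00000163751, chr3:148865256-148897196) had 0.180 and 0.105 FPKM in TF1-BA, against 1.44 and 1.62 FPKM in TF1-BAR. These correspond to 6 and 3 fragments against 42 and 48, at the transcript length nearest the annotated one. The TF1-BA libraries were near the floor of 3 fragments taken as the limit of detection, and CPA3 rose from below nearly all tested genes to above 24.1% of them. The ratio of the means was 10.7, while the log2 fold change with 0.5 FPKM added was 1.66 (SE 0.186, adjusted p = 0.00804 from limma). The size depended on the scale. For CPA3 it was 1.15 when 1 FPKM was added and 3.30 for limma voom on fragments. CMA1 (ENSG00000092009, chr14:24505353-24508265), the chymase of mast cells of connective tissue, had 0 and 0 fragments in TF1-BA, against 1 and 1 in TF1-BAR. A count of 0 allows up to 0.207 FPKM at these depths, so chymase RNA was not detectable beyond the floor in either line and no fold is given. CTSG, the cathepsin G gene in the same cluster on chromosome 14, was by contrast well expressed. It had 11.3 and 14.9 FPKM in TF1-BA, against 49.9 and 48.3 FPKM in TF1-BAR, a log2 fold change of 1.88 (limma SE 0.136, adjusted p = 0.00409). CTSC, which activates granule proteases by removing their propeptides, had 18.0 and 16.3 against 16.9 and 17.6 FPKM (adjusted p = 0.900).

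Of the 3 tryptase genes, which lie side by side on chromosome 16, TPSD1 rose, TPSB2 fell and TPSAB1 did not pass the test. TPSB2 (ENSG00000197253, chr16:1227272-1230184) had 10.9 and 10.5 FPKM in TF1-BA, against 6.02 and 6.37 FPKM in TF1-BAR. The lines did not overlap, and TPSB2 was 1.73-fold lower with a log2 fold change of −0.74 (limma SE 0.0773, adjusted p = 0.00710). TPSAB1 (ENSG00000172236, chr16:1240696-1242554), which encodes alpha and beta 1 tryptase, had 4.95 and 3.85 FPKM in TF1-BA, against 3.19 and 3.29 FPKM in TF1-BAR. It did not overlap either, but its log2 fold change of −0.38 (SE 0.133, 95% interval −0.72 to −0.037) had an adjusted p of 0.0952. TPSD1 (ENSG00000095917, chr16:1256059-1258998), which encodes a shortened tryptase of weak activity, had 1.01 FPKM in both TF1-BA libraries and 3.27 and 2.76 FPKM in the TF1-BAR libraries. It was 2.98-fold higher from 28 and 24 fragments against 79 and 68, with a log2 fold change of 1.21 (limma SE 0.127, adjusted p = 0.00714). Without the filter on low values the adjusted p of TPSD1 was 0.0518, and with 1 FPKM added its log2 fold change was 0.99, so that its call depended on those choices.

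TPSAB1 and TPSB2 are near-identical copies, and their split is uncertain. Of the 150-base windows in the GENCODE 44 transcripts of TPSAB1, 34.6% also occurred in those of TPSB2, and 37.8% of the TPSB2 windows occurred in TPSAB1, a window being as long as 1 read. TPSD1 shared 3.98% of its windows with TPSAB1 and 0 with TPSB2. The study ran its TopHat and Cufflinks pipeline at default settings, and gives nothing further on reads that match several copies. Summed over the 3 genes, the FPKM was 16.9 and 15.3 in TF1-BA, against 12.5 and 12.4 in TF1-BAR. The summed row had a log2 fold change of −0.36 (limma SE 0.0784, adjusted p = 0.0317). TPSD1 took 5.53% and 6.08% of the tryptase fragments in TF1-BA, against 24.7% and 20.9% in TF1-BAR. Its FPKM over that of TPSB2 went from 0.0926 and 0.0969 to 0.543 and 0.433. TPSG1, the membrane-bound tryptase gamma of the same cluster, had 2 fragments in every library.

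**Figure D4:**
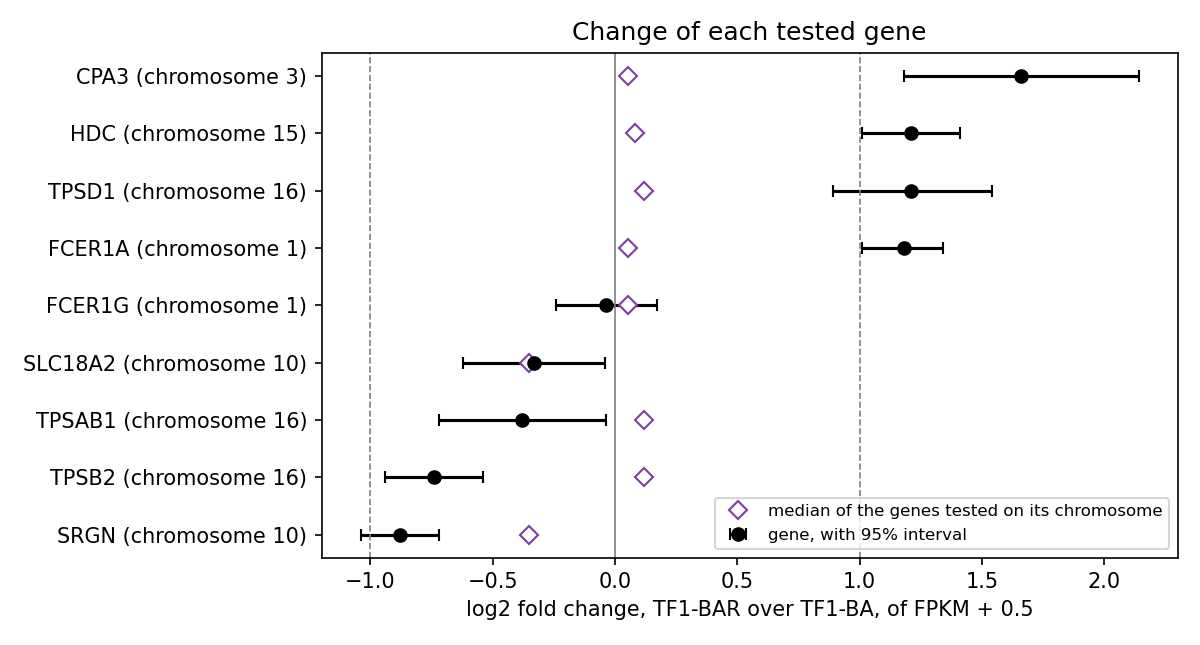
Log2 fold change of the 9 tested genes with 95% intervals from limma (black points) and the median of the genes tested on the same chromosome (open diamonds). Dashed lines mark the threshold of 1 in each direction, which HDC, FCER1A, CPA3 and TPSD1 passed, and SLC18A2 lies beside the median of chromosome 10.

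The regulators and surface receptors of these cells were read from 2 further lists. At an adjusted p under 0.05, 16.3% of all genes tested were higher and 10.5% lower. Of 10 transcription factors all were tested, 4 were higher with an adjusted p under 0.05, 0 were lower and 0 passed both thresholds, with a median log2 fold change of 0.098. GATA2 had 204 and 195 FPKM in TF1-BA, against 233 and 241 FPKM in TF1-BAR, with a log2 fold change of 0.25 (limma SE 0.0567, adjusted p = 0.0339). MITF, the factor that drives many mast cell granule genes, had 0.994 and 0.971 against 0.961 and 1.14 FPKM, and its libraries overlapped (adjusted p = 0.782). Of 17 surface receptors 13 were tested, 6 were higher and 2 lower with an adjusted p under 0.05, and 1 in each direction passed both thresholds, with a median of 0.27. KIT, the receptor for stem cell factor, rose from 28.4 and 25.4 FPKM to 58.7 and 59.3 FPKM (log2 fold change 1.12, SE 0.0768, adjusted p = 0.00409). ENPP3, the surface enzyme known as CD203c on basophils, fell from 7.36 and 6.69 FPKM to 2.84 and 2.34 FPKM (log2 fold change −1.29, SE 0.117, adjusted p = 0.00581). IL3RA, the alpha chain of the interleukin-3 receptor, overlapped between the lines at 13.8 to 16.8 FPKM. CCR3, CRLF2, HRH4 and MRGPRX2 were below the filter.

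Markers of other blood cells were read from lists in the same libraries. The summed FPKM of 6 neutrophil granulocyte markers was 2.62 and 3.97 in TF1-BA, against 2.49 and 2.17 in TF1-BAR, and that of 5 eosinophil markers was 4.08 and 3.53 against 2.53 and 2.87. CTSG, whose protein neutrophils also hold in granules, was in another list and not in this neutrophil sum. It had 11.3 and 14.9 FPKM in TF1-BA, against 49.9 and 48.3 FPKM in TF1-BAR, above the neutrophil sum in every library. Within the neutrophil list ELANE had 3 and 6 fragments in TF1-BA, against 0 in both TF1-BAR libraries, while MPO had 9 and 9 in TF1-BA, against 27 and 31 in TF1-BAR, and neither was tested. The erythroid markers summed to 43.7 and 52.2 against 41.2 and 44.8, and the 4 megakaryocyte markers in the table to 136 and 145 against 189 and 211. Monocyte markers summed to 15.6 and 14.2 against 18.5 and 17.6, with CD14 at 0 in 3 libraries, and the 4 lymphocyte markers in the table to 12.4 and 12.1 against 16.7 and 15.7. Of the tested markers, 3 of 3 for megakaryocytes, 1 of 2 monocyte and 2 of 3 lymphocyte markers were higher with an adjusted p under 0.05, and 1 of 2 neutrophil markers was lower, PRTN3, which passed the filter through TF1-BA alone. For all genes tested the shares were 16.3% higher and 10.5% lower. GP1BA of the megakaryocyte list and CSF1R of the monocyte list passed both thresholds, with log2 fold changes of 1.27 and 1.25, and CSF1R passed the filter on low values through its TF1-BAR libraries alone. Their part in the changes of the mast cell and basophil genes was not tested.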

How the data were processed

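RNA sequencing of 4 libraries, 2 each of TF1-BA and TF1-BAR cells, was analysed. The authors mapped paired reads of 150 bases with TopHat 2.0.13 (GRCh38), and the submitters' processing notes name Cufflinks and Cuffdiff 2.2.0. They deposited FPKM values per gene and library, without log transformation, and the annotation release is not given in the sources used here. Columns were matched to samples by title. Levels were fitted with limma 3.58.1 (eBayes with trend) in R 4.3.3, and p-values were adjusted over all 15519 genes tested by the Benjamini-Hochberg method.

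Fragments were recovered as the whole numbers (within 0.01) that each FPKM gives for the library size and transcript length, at the GENCODE 44 exon length for 14816 genes and a fitted length for 16036. Percentages and floors from fragments cover counting error only. The members and lists were chosen with earlier results of these data known. All 10 members were named, and of each list the genes past both thresholds (at most 4) and a fixed set of defining genes. MAOB, LYN, SYK, PTGS1, NDST2, TPSG1 and other genes outside that rule were named after their values were seen. Alternatives were other pseudocounts, filters, scalings, eBayes without trend, voom on fragments, a replicate block and each library left out. Removing chromosome medians and summing the tryptases were added after seeing the data.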

Additional observations from a re-analysis of the deposited data

How the results depend on the processing

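The 9 tested genes kept their direction under all 15 alternatives except FCER1G, at 0.033 on the log2 scale with FPKM rescaled to TPM and between −0.10 and 0.030 with single libraries left out, and SLC18A2, at 0.081 with chromosome medians removed, and CPA3 was not tested with a filter at 1 FPKM. The number of differentially expressed genes, 737 as reported, was 487 with 1 FPKM added, 314 without the filter on low values, 1150 with limma voom, and 42 to 783 with single libraries left out. The number of mast cell and basophil genes that passed both thresholds was 0 to 4 with single libraries left out, and 0 to 6 had an adjusted p under 0.05. These fits keep 1 residual degree of freedom, and the lone library of a line is assumed to vary like the pair of the other. The lowest numbers came without TF1-BA replicate 2. With all libraries kept, 3 or 4 passed both thresholds under each alternative. Without the filter CMA1 had an adjusted p of 0.0414 on 1 fragment per TF1-BAR library. With the replicate block 755 genes were differentially expressed, 715 of them among the 737, and 4 of the mast cell and basophil genes. The deviations of same-numbered libraries correlated at 0.0646 across 15519 genes. With 2 libraries per line this cannot exclude a shared batch, and the labels give none. CPA3, CMA1 and SLC18A1 are limited by their fragment numbers.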

Other observations

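Genes that build or release granules were read from 3 other lists. At an adjusted p under 0.05, 16.3% of all genes tested were higher and 10.5% lower. Of 18 enzymes that make glycosaminoglycan chains such as those of serglycin, 16 were tested, 6 were higher and 1 lower with an adjusted p under 0.05 from limma, and the median log2 fold change was 0.14. XYLT1, a xylosyltransferase that starts the chains, was the only one past both thresholds, with 0.292 and 0.323 FPKM in TF1-BA, against 1.71 and 1.81 FPKM in TF1-BAR (log2 fold change 1.48, SE 0.156, adjusted p = 0.00714). Its TF1-BA libraries were under the filter of 0.5 FPKM, which XYLT1 passed through TF1-BAR alone. NDST2, the sulfotransferase needed for mast cell heparin, stayed under 0.1 FPKM in every library and was not tested. Of 14 genes of granule exocytosis 13 were tested, 4 were higher and 2 lower, and 1 in each direction passed both thresholds, with a median of 0.075. RAB27A, a small GTPase of granule docking, fell from 27.0 and 26.4 FPKM to 11.2 and 10.9 FPKM (log2 fold change −1.23, SE 0.0652, adjusted p = 0.00282). STX3, a syntaxin of membrane fusion, rose from 7.55 and 8.39 FPKM to 19.5 and 21.6 FPKM (log2 fold change 1.31, SE 0.0919, adjusted p = 0.00409).

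Of 8 genes of prostaglandin and leukotriene synthesis 7 were tested, 2 were higher and 2 lower with an adjusted p under 0.05, and the median log2 fold change was 0.17. PTGS2, the inducible cyclooxygenase, was the one past both thresholds, at 1.86 and 1.58 FPKM in TF1-BA, against 0.518 and 0.354 FPKM in TF1-BAR (log2 fold change −1.25, SE 0.177, adjusted p = 0.0121). PTGS2 passed the filter of 0.5 FPKM through its TF1-BA libraries alone. PTGS1, the constitutive enzyme, rose from 26.3 and 25.4 FPKM to 47.4 and 50.2 FPKM (log2 fold change 0.90, SE 0.0651, adjusted p = 0.00409). LTC4S, which makes the leukotriene C4 of mast cells, had at most 1 fragment in any library. HPGDS, the prostaglandin D2 synthase of mast cells, had 2.39 and 2.36 FPKM against 2.92 and 3.12 FPKM (adjusted p = 0.0833). Among 8 other granule enzymes 4 were tested, 1 was higher and 2 lower with an adjusted p under 0.05, the median was −0.28, and PRG3, an eosinophil granule protein, was lower past both thresholds (log2 fold change −1.49, SE 0.319, adjusted p = 0.0298), opposite to CTSG.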
